A study of Mus musculus with 96 samples.

Results

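The 9 libraries described here come from the cortex of aged mice and compare repeated injections of young plasma with injections of the saline vehicle. They were chosen by their titles, out of 96 brain libraries in the series, and each is the cortex of 1 mouse. The plasma group holds 5 male C57BL/6J mice of 18 months that received young plasma on 7 consecutive days (mice 1, 4, 7, 10 and 13). The PBS group holds 4 male C57BL/6J mice of 18 months that received phosphate-buffered saline on 7 consecutive days (mice 2, 5, 8 and 11). The labels give no transgene, no route or volume of injection and no donor of the plasma beyond "young". The hippocampus and cerebellum of the same 9 mice were also sequenced. Further cortex groups of the same strain and sex were plasma mice of 22 months with 7 injections (3 mice) and PBS mice of 22 months (3 mice), plasma mice of 19 months with 24 daily injections (3 mice) and PBS mice of 19 months with 24 injections (4 mice), and uninjected mice of 18 months (3 mice) and of 2 months (4 mice).

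Blood carries hormones, cytokines, growth factors and clotting proteins whose levels shift with age, and transfer of young plasma into old animals is used to ask whether soluble factors act on aged tissue. Most plasma proteins do not cross the blood-brain barrier freely, so endothelial cells, choroid plexus and glia are usually considered among the first brain cells that could respond. In the aged mouse brain, complement, class I MHC, interferon-induced and reactive glial genes are the commonly reported age markers, and genes of synapses and neuronal activity are often read as measures of neuronal function.

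Sequencing depth, as total counts, was 7719401 to 23768385 in plasma mice and 2047016 to 12754886 in PBS mice, and PBS mouse 11 had the lowest. Slc17a7, the vesicular glutamate transporter of forebrain excitatory neurons, was at 663.5 to 802 CPM (counts scaled to 1000000 per library) in the 9 libraries, while hippocampus libraries of the series had a median of 762 CPM and cerebellum libraries of 245 CPM. Prox1, a transcription factor of dentate granule neurons, was at 14.6 to 20.5 CPM in the 9 libraries, while hippocampus libraries had a median of 78.8 CPM. Gabra6, a receptor subunit of cerebellar granule cells, was at 0 CPM in all 9. The correlation of log2 CPM between any 2 of the 9 libraries lay between 0.964 and 0.990 over 36 pairs, with no 2 libraries identical.

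No gene differed between plasma and PBS cortex past the threshold. Of 18769 genes tested with edgeR's quasi-likelihood test, 0 passed an adjusted p of 0.05 (0% of all genes), and the smallest adjusted p was 1.00. At an unadjusted p under 0.05 there were 762 genes (4.06% of all genes), 425 with higher values in plasma cortex (2.26%) and 337 with lower values (1.8%). DESeq2 and limma-voom also called 0 genes, with 535 and 853 genes at an unadjusted p under 0.05. The median change over all genes was 0.00 on the log2 scale, with 9389 genes higher and 9380 lower in plasma cortex.

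**Figure D1:**
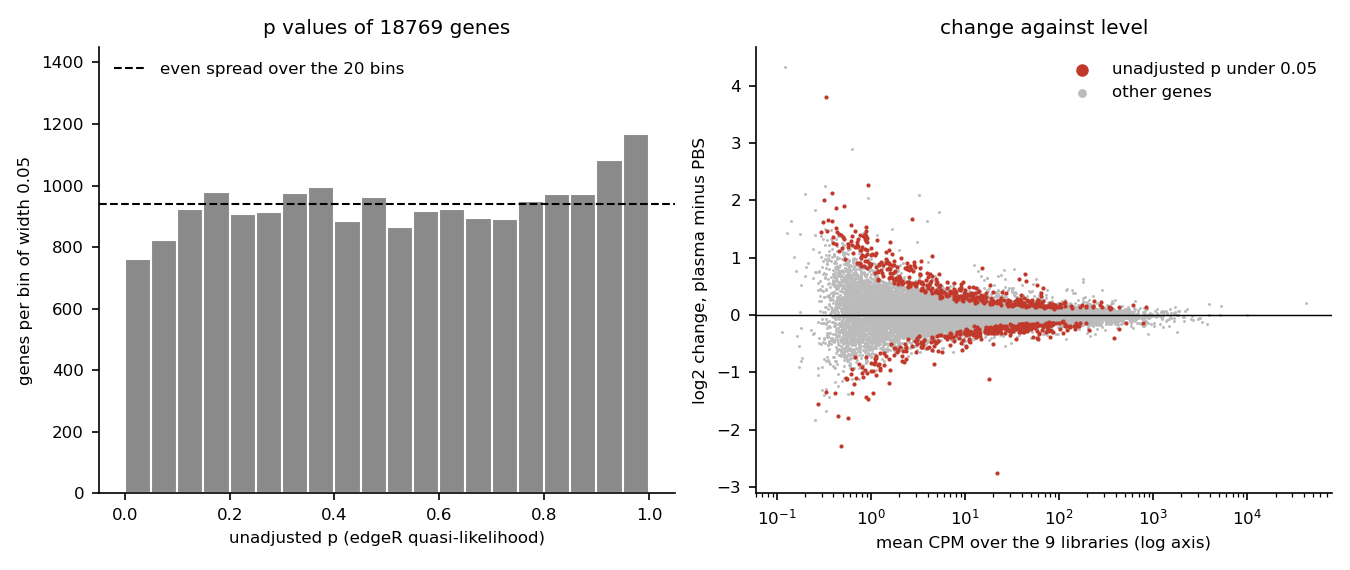
Left, number of genes per bin of unadjusted p from edgeR's quasi-likelihood test of plasma against PBS cortex at 18 months, with a dashed line at an even spread; right, log2 change (plasma minus PBS) against mean CPM on a log axis, 1 point per gene. The lowest bin holds 762 of the 18769 genes and lies under the dashed line, and the changes narrow around 0 as CPM increases.

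The size of change that these mice could show depended on expression level. SE and intervals were derived from the log2 change and the F statistic of edgeR's test. The 95% interval of the change lay within 1 log2 unit of 0, a change of less than 2-fold either way, for 16054 genes (85.5%). Among the 4629 genes at 50 CPM or more the share was 99.7%, and 97% had an interval within 0.5 log2 units. Among the 8108 genes from 5 to 50 CPM the shares were 98.8% and 82.7%. Of the 1996 genes under 1 CPM only 15.5% had an interval within 1 log2 unit, so for the others the interval included changes of more than 2-fold. The p-values set the difference between groups against a spread between mice, 1 library per mouse, estimated in the fit of all 29 cortex libraries.

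The genes with the smallest unadjusted p among those whose groups do not overlap are given as values, since none passed. Groups did not overlap for 277 genes (1.48% of all genes), 147 higher in plasma cortex (0.783%) and 130 lower (0.693%). For the 24 genes named here, 12 in each direction, the absolute log2 change ran from 0.16 to 0.63 and edgeR's adjusted p was 1.00 for each. Lack of overlap was part of the choice and is not a result.

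Tk2, the mitochondrial thymidine kinase, is one of the 12 genes with higher values; its gene lies on chromosome 8 from 104226685 to 104248558 in GRCm38. It had 39.7, 35.8, 37.1, 40.0 and 39.3 CPM in plasma mice 1, 4, 7, 10 and 13, against 32.3, 30.3, 31.9 and 31.3 CPM in PBS mice 2, 5, 8 and 11. The lowest plasma mouse lay above the highest PBS mouse, and the log2 change was 0.29 ± 0.07 (SE; edgeR adjusted p = 1.00). Chchd4, which drives protein import into the mitochondrial intermembrane space, averaged 49.6 ± 3.27 CPM in plasma cortex (SD, n = 5) and 41.7 ± 2.06 CPM in PBS cortex (SD, n = 4), a log2 difference of 0.26 ± 0.07 (SE). Dcaf11 and Rnf114, components of ubiquitin ligases, had log2 changes of 0.18 ± 0.05 and 0.21 ± 0.06. Mapre1, the microtubule plus-end protein EB1, averaged 108 ± 2.09 CPM in plasma cortex and 94.0 ± 7.45 CPM in PBS cortex, a log2 change of 0.19 ± 0.06.

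Igsf21 had the largest change of the 24 genes. It encodes an adhesion protein of inhibitory synapses and lies on chromosome 4 from 140026846 to 140246784. Its values were 54.7, 34.2, 49.3, 52.2 and 34.1 CPM in plasma mice 1, 4, 7, 10 and 13, against 32.1, 22.4, 29.2 and 32.2 CPM in PBS mice 2, 5, 8 and 11. Plasma mice 4 and 13 lay just above PBS mice 2 and 11 while the other 3 plasma mice lay far above, and the log2 change was 0.63 ± 0.17 (SE). Hyal2, a hyaluronan-degrading enzyme, averaged 11.6 ± 0.621 CPM in plasma cortex and 9.20 ± 0.510 CPM in PBS cortex, and Abcc4, an efflux transporter also found at the blood-brain barrier, averaged 13.0 ± 0.601 CPM in plasma cortex and 9.68 ± 1.97 CPM in PBS cortex. Zdhhc4, a palmitoyltransferase family gene, the zinc finger gene Zbtb8b, Trafd1, a negative regulator of innate immune signalling, and Nomo1, a protein of the endoplasmic reticulum membrane, had log2 changes of 0.30, 0.48, 0.22 and 0.16.

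Among the 12 genes with lower values in plasma cortex, Ugcg had the smallest p. Ugcg makes glucosylceramide, the first step of glycosphingolipid synthesis, and lies on chromosome 4 from 59189257 to 59222833. It had 52.9, 57.4, 47.9, 50.2 and 55.4 CPM in plasma mice 1, 4, 7, 10 and 13, against 63.2, 65.2, 67.0 and 60.6 CPM in PBS mice 2, 5, 8 and 11. All PBS mice lay above the plasma mice, by 3 CPM or more, and the log2 change was -0.28 ± 0.07 (SE; edgeR adjusted p = 1.00). Pi4kb, a Golgi phosphatidylinositol kinase, averaged 19.1 ± 2.13 CPM in plasma cortex and 23.5 ± 1.69 CPM in PBS cortex, a log2 change of -0.31 ± 0.08. Nol9 and Wdr55, nucleolar proteins of ribosomal RNA maturation, had log2 changes of -0.32 ± 0.09 and -0.42 ± 0.13, and in Wdr55 PBS mouse 11 stood apart at 17.1 CPM.

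The remaining lower genes have varied roles. Slitrk2, a synaptic adhesion protein encoded on the X chromosome, averaged 54.9 ± 6.82 CPM in plasma cortex and 68.3 ± 3.18 CPM in PBS cortex, a log2 change of -0.31 ± 0.09. Hs2st1, which sulfates heparan sulfate, averaged 46.2 ± 1.21 CPM in plasma cortex and 53.1 ± 2.79 CPM in PBS cortex. Kdm7a, a histone demethylase, averaged 59.9 ± 4.06 CPM in plasma cortex and 71.5 ± 3.42 CPM in PBS cortex. Ankib1, a ubiquitin ligase, Sntb2, a syntrophin, the zinc finger genes Zfp384 and Zfp719, and Them6 had log2 changes from -0.44 for Zfp384 to -0.19 for Ankib1.

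**Figure D2:**
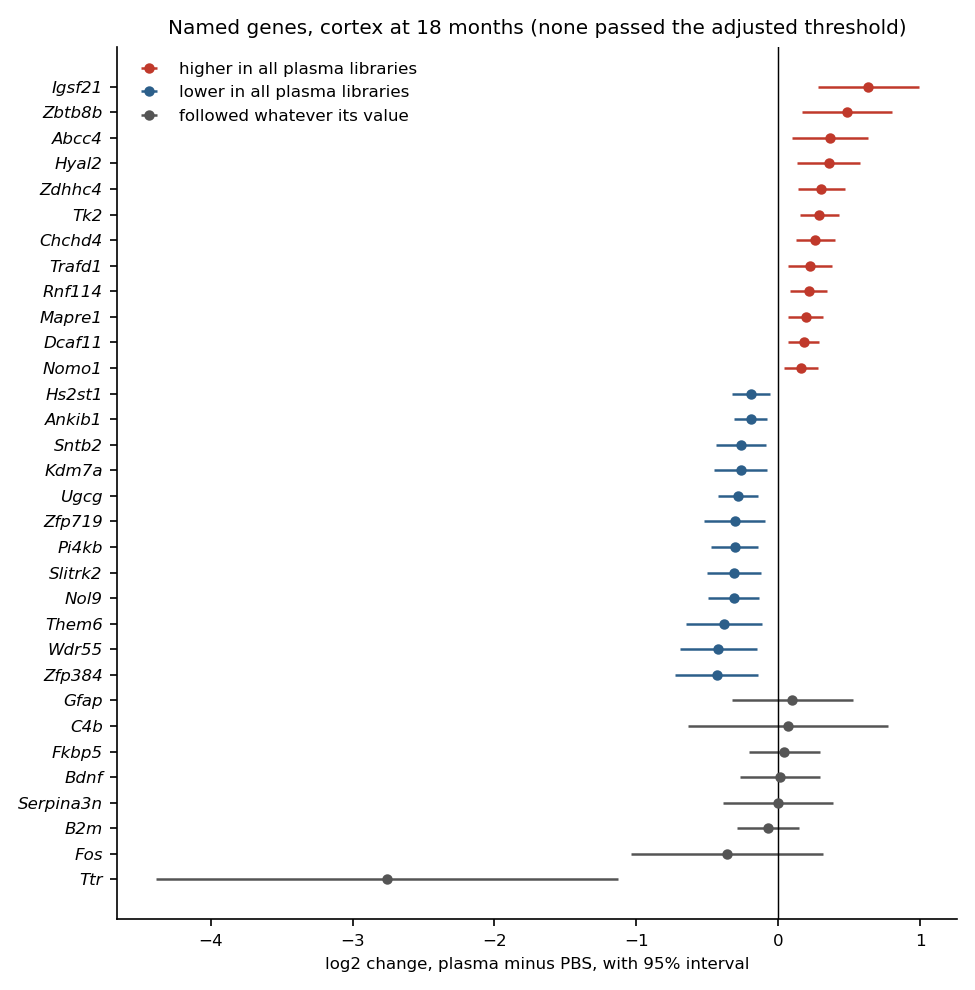
Log2 change, plasma minus PBS, with the 95% interval from the edgeR fit for the 24 genes chosen for groups that do not overlap (red higher, blue lower in plasma cortex) and for 8 genes followed whatever their value (grey). Intervals of the chosen genes lie to 1 side of 0 before adjustment over 18769 genes, while those of 7 of the 8 followed genes include 0 and that of Ttr does not.

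The 24 genes were set beside the other plasma comparisons of the series. In separate mice of 22 months, where 0 of 18769 genes passed (0%), 4 of the 12 higher genes were again higher in plasma cortex, with log2 changes from -0.17 to 0.08, and 5 of the 12 lower genes were again lower. After 24 injections in mice of 19 months, where 0 genes passed (0%), 1 of the 12 higher genes was again higher and 3 of the 12 lower genes were again lower. Igsf21 had log2 changes of -0.13 ± 0.19 (SE) at 22 months and -0.34 ± 0.20 (SE) after 24 injections. In the other regions of the same mice, 4 of 12 higher and 3 of 12 lower genes had the same direction in the hippocampus, and 7 of 12 higher and 5 of 12 lower genes in the cerebellum. Both regions had 0 of 19490 genes past the threshold (0%). Over all genes the median log2 change was -6.4e-05 at 22 months and -0.0064 after 24 injections. It was 0.0057 in the hippocampus and 0.0077 in the cerebellum.

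The genes followed in every comparison overlapped between plasma and PBS mice, and Ttr, C4b and Fos had the largest SE of the change among them. C4b, a complement component widely reported as higher in aged brain, had 32.4, 22.3, 21.5, 30.4 and 16.6 CPM in plasma mice 1, 4, 7, 10 and 13, against 33.6, 23.9, 15.3 and 21.0 CPM in PBS mice 2, 5, 8 and 11. The groups overlapped over nearly their whole range, and the log2 change was 0.07 ± 0.34 (SE); reads of C4b and its near copy C4a cannot be told apart with certainty. Gfap, the filament protein of reactive astrocytes, averaged 123 ± 14.3 CPM in plasma cortex and 116 ± 28.8 CPM in PBS cortex, a log2 change of 0.10 ± 0.21. Serpina3n, a serine protease inhibitor of reactive astrocytes from a family of close copies, averaged 8.96 ± 1.81 CPM in plasma cortex and 9.18 ± 0.607 CPM in PBS cortex. In uninjected cortex, 18 against 2 months, the log2 change was 1.47 ± 0.43 for C4b (SE; edgeR adjusted p = 0.351), which did not pass. It was 0.0034 ± 0.24 for Gfap and -0.096 ± 0.23 for Serpina3n. Fkbp5, induced by glucocorticoids, averaged 27.7 ± 2.23 CPM in plasma cortex and 26.8 ± 2.27 CPM in PBS cortex. Bdnf, a neurotrophin, averaged 31.5 ± 1.99 CPM in plasma cortex and 30.2 ± 4.67 CPM in PBS cortex.

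Across the 43 gene lists described here, 651 of 715 distinct genes could be tested and 0 passed. At an unadjusted p under 0.05 there were 22 of them (3.38%, against 4.06% of all genes), and groups did not overlap for 4 (0.614%, against 1.48% of all genes). Those 4 genes were Osmr, Hif3a, Ldha and Pvalb, and they are named for that reason after their values were seen. Osmr, the oncostatin M receptor, had 4.56 to 5.81 CPM in the 5 plasma mice and 1.95 to 4.41 CPM in the 4 PBS mice. Hif3a, a hypoxia-inducible factor subunit that glucocorticoids also induce, had 2.46 to 4.25 CPM in plasma mice and 0.984 to 2.37 CPM in PBS mice, a log2 change of 0.85 ± 0.26 (SE). Ldha, lactate dehydrogenase A, averaged 353 ± 29.2 CPM in plasma cortex and 321 ± 3.47 CPM in PBS cortex. Pvalb, the calcium-binding protein of fast-spiking interneurons, had 35.7 to 63.3 CPM in plasma mice and 63.7 to 72.6 CPM in PBS mice, a log2 change of -0.36 ± 0.28 (SE; edgeR adjusted p = 1.00).

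**Figure D3:**
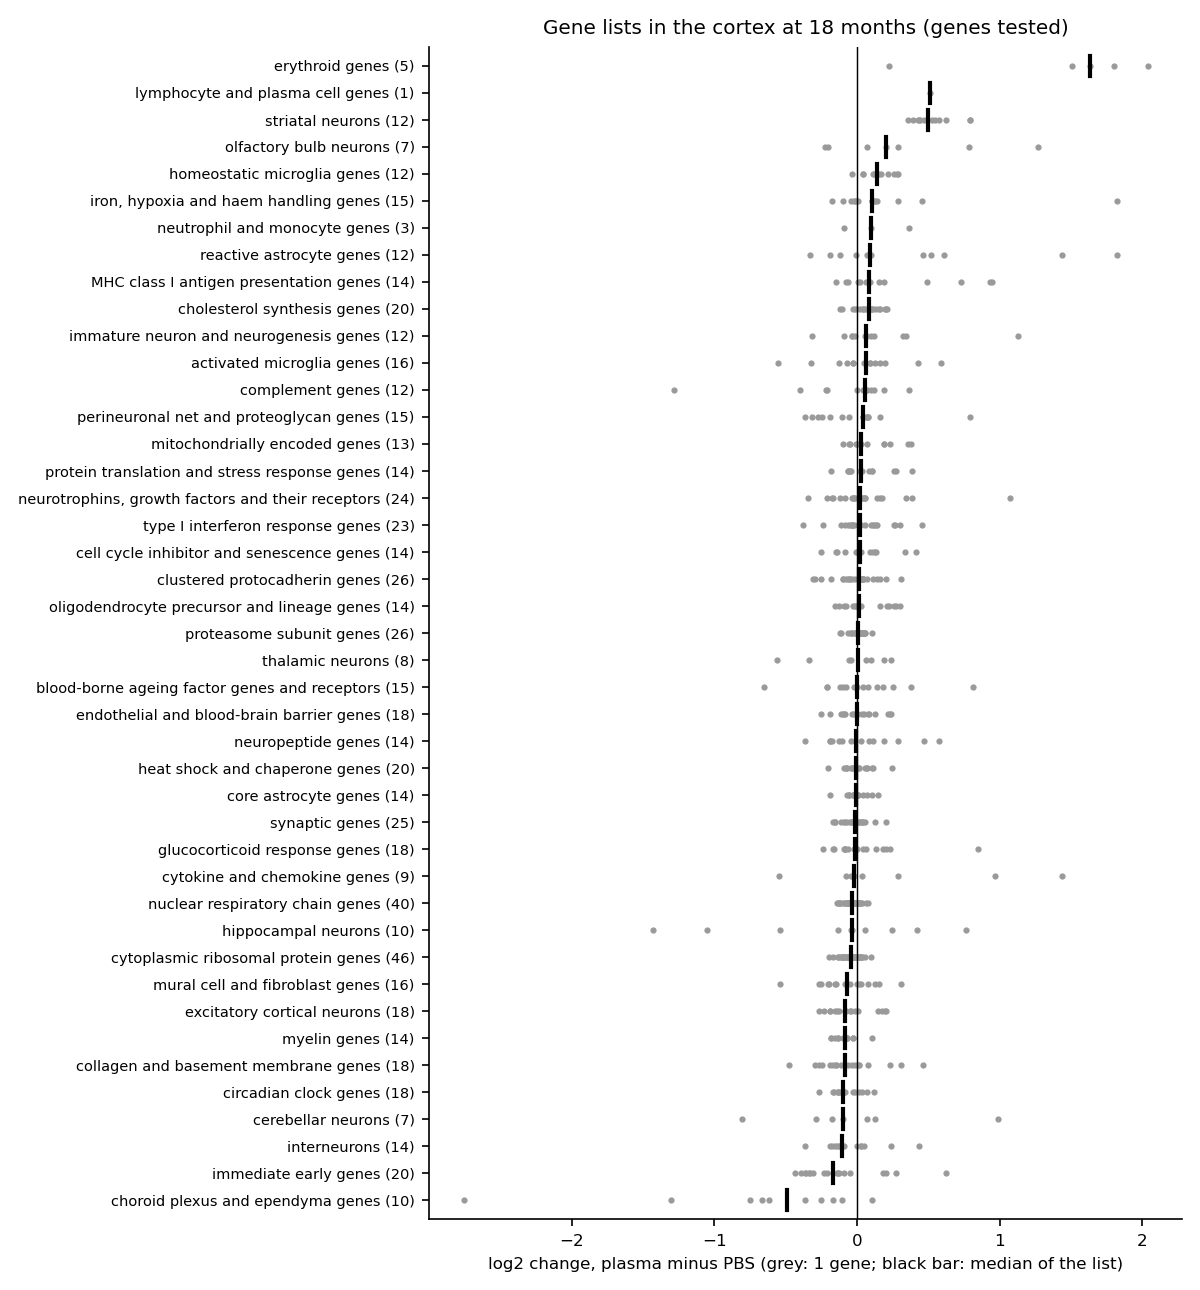
Log2 change, plasma minus PBS, of each tested gene (grey points) in 43 gene lists, with the median of the list (black bar) and the number of tested genes in brackets. Most medians lie close to 0, the median of all genes, while the erythroid and striatal lists, and the lymphocyte list with its 1 tested gene, lie to the right of it and the choroid plexus list to the left.

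Genes for blood-borne factors reported to act on the ageing brain, and for their receptors, had a median log2 change of 0.00 over 15 tested genes, 7 higher and 8 lower. Those changes ran from -0.65 to 0.82, and Csf2ra had the smallest p, with a log2 change of -0.21 ± 0.11. B2m, the light chain of class I MHC that circulates at higher levels in old mice, had 97.3, 95.3, 101, 85.1 and 89.7 CPM in plasma mice 1, 4, 7, 10 and 13, against 85.7, 92.3, 113 and 106 CPM in PBS mice 2, 5, 8 and 11. Plasma values sat inside the PBS range apart from mouse 10. Vcam1, the endothelial adhesion molecule that is more abundant on aged brain vessels, had a log2 change of 0.08 ± 0.13. Igf1r, the receptor of insulin-like growth factor 1, was at -0.02 ± 0.07 and Insr, the insulin receptor, at 0.14 ± 0.09. Timp2, a metalloproteinase inhibitor, and Clu, clusterin, had log2 changes of 0.18 ± 0.15 and 0.04 ± 0.07. The neurotrophin and growth factor list had a median of 0.02 over 24 genes, which ran from -0.34 to 1.07, and Acvr2b, an activin and GDF receptor, had its smallest p, with a log2 change of 0.39 ± 0.17 (edgeR adjusted p = 1.00).

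Endothelial and blood-brain barrier genes summed to 594 to 686 CPM in plasma mice and 618 to 714 CPM in PBS mice, and the groups overlapped. Of 18 such genes 9 were higher and 9 lower, with a median log2 change of 0.00. The mural cell and fibroblast list had a median of -0.07 over 16 genes. Collagen and basement membrane genes had a median of -0.09 over 18 genes, and plasma mouse 10 stood apart with a sum of 569 CPM, against 422 to 459 CPM in the other 4 plasma mice. Col6a1, a collagen VI chain, had 55.9 to 115 CPM in plasma mice, the highest again in mouse 10, and 49.5 to 62.2 CPM in PBS mice, with a log2 change of 0.46 ± 0.18.

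Genes of microglia, the resident macrophages of the brain, were slightly higher in plasma cortex in most cases without passing the test. Of 12 homeostatic microglia genes 11 had positive log2 changes, with a median of 0.14, beside 9389 of 18769 genes overall. Their summed level was 455, 378, 408, 489 and 391 CPM in plasma mice 1, 4, 7, 10 and 13, against 400, 437, 366 and 377 CPM in PBS mice 2, 5, 8 and 11. Plasma mice 1 and 10 were the highest and the other 3 plasma mice lay among the PBS mice. Siglech, a lectin of microglia, and Sall1, a transcription factor that maintains their identity, had log2 changes of 0.29 ± 0.13 and 0.28 ± 0.14 (edgeR adjusted p = 1.00 each), while P2ry12, a purine receptor of microglia, was at 0.05 ± 0.12. In bulk tissue, more cells of a type and more RNA per cell cannot be told apart. The activated microglia list had a median of 0.06 over 16 genes, and Spp1, osteopontin, had a log2 change of -0.55 ± 0.20, with 6.73 to 12.2 CPM in plasma mice and 9.28 to 16.5 CPM in PBS mice.

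Complement and antigen presentation genes gave small positive medians. Of 12 complement genes 8 were higher in plasma cortex, with a median log2 change of 0.06, and the median was -0.17 without PBS mouse 8 and 0.15 without PBS mouse 2. C1qb, a chain of the initiating complex C1q, averaged 59.8 ± 5.61 CPM in plasma cortex and 52.8 ± 2.19 CPM in PBS cortex, a log2 change of 0.19 ± 0.09, while its partner chains C1qa and C1qc were at 0.04 ± 0.10 and 0.10 ± 0.11. Of 14 class I MHC and peptide loading genes 11 were higher, with a median of 0.09. Tap1, which pumps peptides into the endoplasmic reticulum, had 7.36, 3.76, 3.62, 4.61 and 4.23 CPM in plasma mice 1, 4, 7, 10 and 13, against 3.68, 2.46, 2.35 and 3.42 CPM in PBS mice 2, 5, 8 and 11. Plasma mouse 1 stood apart and the groups overlapped at PBS mouse 2, with a log2 change of 0.73 ± 0.26 (edgeR adjusted p = 1.00). H2-Q6 and H2-Q7, near-identical nonclassical class I genes whose reads counting could split, had log2 changes of 0.95 ± 0.37 and 0.93 ± 0.36, at 1.17 to 6.36 CPM in plasma mice and 0.977 to 2.95 CPM in PBS mice. The abundant H2-D1 and H2-K1 had log2 changes of 0.06 ± 0.11 and 0.19 ± 0.13. The type I interferon list had a median of 0.02, with 13 of 23 genes higher, and Ifih1, a sensor of viral RNA, had a log2 change of -0.38 ± 0.16. Cytokine and chemokine genes had a median of -0.02 over 9 tested genes of 16, and of 12 neutrophil and monocyte genes 3 were expressed enough to be tested, with a median of 0.10.

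Astrocyte genes split evenly, with 7 of 14 core genes higher and a median log2 change of -0.01. Their summed level was 5012 to 5394 CPM in plasma mice and 4910 to 5606 CPM in PBS mice. Slc1a3, the glutamate transporter GLAST, had a log2 change of 0.15 ± 0.08. Of 12 reactive astrocyte genes 8 were higher, and their median was 0.09. Of 14 myelin genes 13 were lower in plasma cortex, with a median log2 change of -0.08, and the median was 0.03 without PBS mouse 2 and -0.26 without PBS mouse 8. Their summed level was 4793, 6110, 5287, 4713 and 4675 CPM in plasma mice 1, 4, 7, 10 and 13, against 6504, 5622, 3651 and 5979 CPM in PBS mice 2, 5, 8 and 11. PBS mice held both the highest and the lowest value. Genes of oligodendrocyte precursors and lineage had a median of 0.01, and Gpr17, a receptor of newly forming oligodendrocytes, had a log2 change of 0.30 ± 0.19.

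Genes of cortical neurons had medians slightly below 0. Excitatory cortical neuron genes summed to 2812 to 3059 CPM in plasma mice and 2948 to 3303 CPM in PBS mice, with 13 of 18 genes lower in plasma cortex and a median log2 change of -0.08, which was -0.0085 without PBS mouse 8. Interneuron genes summed to 1167 to 1473 CPM in plasma mice and 1403 to 1509 CPM in PBS mice, with a median of -0.10. Of 25 synaptic genes 9 were higher (median -0.01), and of 26 clustered protocadherin genes 14 were higher (median 0.02). The perineuronal net list had a median of 0.04 and the immature neuron list of 0.06.

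Markers of other brain areas showed no gene past the test. Hippocampal, thalamic and cerebellar neuron genes had median log2 changes of -0.04, 0.01 and -0.10 over 10, 8 and 7 tested genes, and olfactory bulb genes of 0.21 over 7. Zic2, a transcription factor of cerebellar granule cells, had 1.38 to 2.20 CPM in plasma mice and 1.47 to 3.84 CPM in PBS mice, a log2 change of -0.80 ± 0.24. Th, tyrosine hydroxylase of dopamine neurons, had 2.33 to 3.45 CPM in plasma mice and 1.39 to 3.42 CPM in PBS mice, a log2 change of 0.78 ± 0.31. Both are scarce transcripts and their groups overlapped. Neuropeptide genes had a median of -0.01 over 14 genes, and Crh, corticotropin-releasing hormone, a log2 change of -0.36 ± 0.23.

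Striatal neuron genes were higher in plasma cortex in all 12 cases, with a median log2 change of 0.50 and no gene past the test. Their summed level was 962, 840, 1744, 1921 and 400 CPM in plasma mice 1, 4, 7, 10 and 13, against 1735, 576, 382 and 492 CPM in PBS mice 2, 5, 8 and 11. Plasma mice 7 and 10 and PBS mouse 2 were high, and the groups overlapped. Drd1, a dopamine receptor of striatal projection neurons, ran from 13.4 to 77.1 CPM in plasma mice and from 13.2 to 76.6 CPM in PBS mice, and Adora2a, an adenosine receptor of the indirect pathway, from 7.16 to 93.7 CPM in plasma mice and from 8.39 to 77.8 CPM in PBS mice. The median log2 change of the 12 genes was 1.66 without PBS mouse 2, 0.22 without plasma mouse 10 and 0.19 without PBS mouse 8. The other 20 cortex libraries of the first experiment spanned 240 to 1978 CPM in the same sum. Cd4, the tested member of the lymphocyte list, had 8.96, 6.35, 15.3, 21.4 and 2.36 CPM in plasma mice 1, 4, 7, 10 and 13, against 16.0, 5.41, 1.57 and 4.40 CPM in PBS mice 2, 5, 8 and 11. The same 3 mice were the highest in Cd4 as in the striatal sum. With the striatal sum as a covariate, 0 genes passed and 646 had an unadjusted p under 0.05 in edgeR's test. The median log2 change of the 12 genes, which make up that sum, was 0.036 in this fit. The effect of the striatal sum itself on single genes was not tested.

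**Figure D4:**
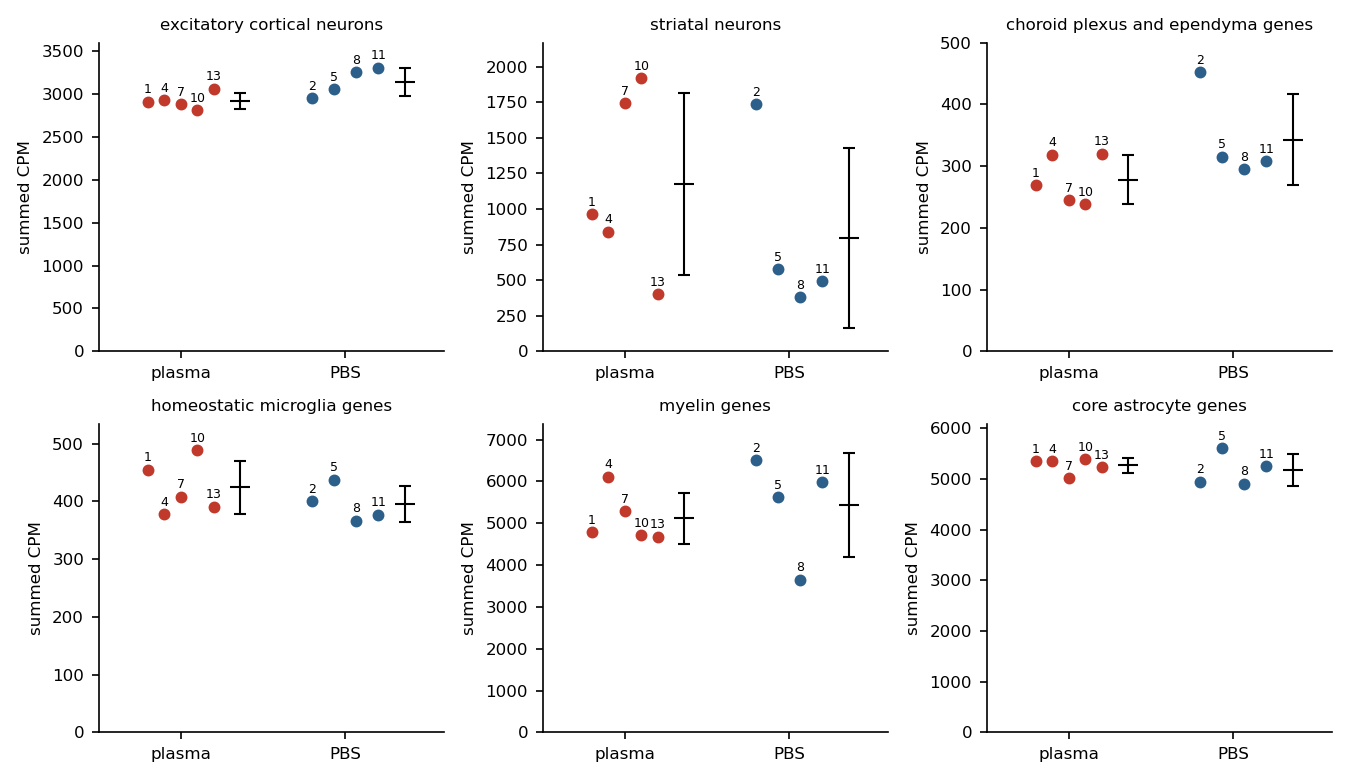
Summed CPM of 6 marker lists in each cortex library, plasma mice in red and PBS mice in blue with the mouse number above each point, and mean ± SD (n = 5 plasma, n = 4 PBS) as black bars. Excitatory and astrocyte sums vary little, while the striatal sum runs from 382 to 1921 CPM and PBS mouse 2 stands apart from the other PBS mice in the striatal and choroid plexus panels.

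Choroid plexus and ependyma genes were lower in plasma cortex in 9 of 10 cases, with a median log2 change of -0.49. Ttr, transthyretin, the thyroxine carrier that choroid plexus makes in bulk, had 2.31, 15.4, 8.67, 7.28 and 2.77 CPM in plasma mice 1, 4, 7, 10 and 13, against 110, 13.0, 23.0 and 13.2 CPM in PBS mice 2, 5, 8 and 11. PBS mouse 2 stood far above all others, and plasma mouse 4 lay above PBS mice 5 and 11. The log2 change was -2.76 ± 0.80 (SE; edgeR adjusted p = 1.00), the largest of the followed genes, and -1.43 without PBS mouse 2. The median of the list was 0.02 without that mouse and -0.89 without PBS mouse 8. Folr1 and Ccdc153, markers of choroid plexus and of ciliated ependyma, were at 0.898 CPM or less in every library, and the summed level of the list was 238 to 320 CPM in plasma mice and 295 to 453 CPM in PBS mice. In the hippocampus of the same mice the list was high in another animal, plasma mouse 7, at 4253 CPM, against 174 to 364 CPM in the other 8 mice. The Ttr change was 3.55 ± 1.40 there, and the part of choroid plexus tissue in these values was not tested.

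Immediate early genes, which neurons switch on within minutes of activity, differed between the groups by less than they varied between mice. Of 20 such genes 16 had lower values in plasma cortex, with a median log2 change of -0.17 and no gene past the test, and they summed to 1716 ± 503 CPM in plasma cortex (SD, n = 5) and 1937 ± 586 CPM in PBS cortex (SD, n = 4). With 1 library left out the median ran from -0.32, without plasma mouse 4, to -0.017, without PBS mouse 2. Fos, a subunit of the transcription factor AP-1, had 14.8, 43.7, 39.5, 18.3 and 19.9 CPM in plasma mice 1, 4, 7, 10 and 13, against 45.8, 41.3, 23.2 and 21.0 CPM in PBS mice 2, 5, 8 and 11. Low and high mice occurred in both groups, and the log2 change was -0.36 ± 0.33 (SE), or -0.60 without plasma mouse 4 and -0.11 without PBS mouse 2. Arc, a synaptic protein induced by activity, had 260, 756, 570, 200 and 237 CPM in plasma mice 1, 4, 7, 10 and 13, against 584, 655, 436 and 129 CPM in PBS mice 2, 5, 8 and 11. Its low mice were plasma 1, 10 and 13 and PBS 11, and its log2 change was -0.17 ± 0.41. Egr1, a zinc finger transcription factor, had the smallest p, with 247 to 429 CPM in plasma mice and 305 to 566 CPM in PBS mice and a log2 change of -0.40 ± 0.19 (edgeR adjusted p = 1.00). Npas4, a neuron-specific member of the group, was at 0.20 ± 0.35, and the orphan nuclear receptors Nr4a1 and Nr4a2 were at -0.33 ± 0.35 and 0.63 ± 0.32.

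Of the 4 mice with a low immediate early sum in the cortex, all were low in the cerebellum and 3 in the hippocampus. The summed cortical level of the 20 genes was 1379, 2379, 2128, 1260 and 1434 CPM in plasma mice 1, 4, 7, 10 and 13, against 2388, 2353, 1878 and 1130 CPM in PBS mice 2, 5, 8 and 11. In the cerebellum, plasma mice 1, 10 and 13 and PBS mouse 11 had 415 to 467 CPM, while plasma mice 4 and 7 and the other 3 PBS mice had 588 to 647 CPM. In the hippocampus, plasma mice 1 and 10 and PBS mouse 11 had 822, 835 and 859 CPM, and the other 6 mice, plasma mouse 13 among them, had 1083 to 1517 CPM. A second number in the sample titles, whose meaning the labels do not give, is shared by plasma mice 10 and 13 and PBS mouse 11 and by no other mice of the 2 groups. The other 3 plasma mice share a number of their own and the other 3 PBS mice another, so outside those 3 mice number and treatment cannot be told apart. Within those 3 mice alone the median log2 change of the list was 0.29, with 2 plasma mice against 1 PBS mouse, without them it was -0.14, and with the number as a term it was -0.043.

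Many immediate early genes have promoters bound by CREB and ATF proteins, activated by calcium and cyclic AMP signals, at the letters TGACG on either strand (CGTCA on the other), which also lie inside the full site TGACGTCA. In RefSeq promoters of GRCm38.p6, the 250 bases before the start held TGACG on either strand in 12 of 16 immediate early genes found in the table (75%), against 5347 of 27025 genes (19.8%). The full site was in 2 of the 16 (12.5%) and in 478 of all genes (1.77%). A match is a description of the letters, not of binding. The 150 bases before the start of Fos (chr12:85473740-85473889, plus strand), Nr4a1 (chr15:101266696-101266845, plus strand) and Npas4 (chr19:4989972-4990121, minus strand) are shown as examples with and without these letters. They were chosen after their values were seen, and no relation between letters and levels was tested over the list. Capitals mark TGACG or CGTCA.
Fos: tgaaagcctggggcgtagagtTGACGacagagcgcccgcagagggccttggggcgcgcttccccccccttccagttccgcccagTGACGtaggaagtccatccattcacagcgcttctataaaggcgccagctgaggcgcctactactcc
Nr4a1: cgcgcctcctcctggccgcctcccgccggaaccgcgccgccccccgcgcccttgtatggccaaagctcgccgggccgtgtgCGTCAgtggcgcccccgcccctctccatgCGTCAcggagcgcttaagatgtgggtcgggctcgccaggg
Npas4: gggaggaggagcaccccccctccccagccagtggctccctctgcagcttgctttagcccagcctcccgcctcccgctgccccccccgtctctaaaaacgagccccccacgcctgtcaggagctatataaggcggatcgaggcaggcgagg
Fos and Nr4a1 each hold 2 matches in this window of 150 bases and Npas4 holds 0. The count over genes used 250 bases, so Npas4 may still hold a match farther from the start. Nr4a1 had 61.8, 148, 119, 61.0 and 62.0 CPM in plasma mice 1, 4, 7, 10 and 13, against 173, 137, 80.9 and 41.5 CPM in PBS mice 2, 5, 8 and 11. Npas4 had 7.19, 8.16, 8.67, 9.12 and 2.20 CPM in the same plasma mice, against 8.41, 6.65, 2.98 and 7.33 CPM in the PBS mice. Nr4a1 was low in plasma mice 1, 10 and 13 and PBS mouse 11. Npas4 was low in plasma mouse 13 and PBS mouse 8.

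Erythroid genes, which report red blood cell RNA left in the tissue, stood high in 3 of the same 4 mice. Their summed level was 42.3, 5.05, 2.59, 26.9 and 3.91 CPM in plasma mice 1, 4, 7, 10 and 13, against 4.08, 3.20, 4.63 and 41.0 CPM in PBS mice 2, 5, 8 and 11. Plasma mice 1 and 10 and PBS mouse 11 were high and the other 6 were at 5.05 CPM or less. The cerebellum of those 3 mice had 85.9, 58.3 and 87.1 CPM, against 4.31 to 13.9 CPM in the other 6. In the hippocampus plasma mice 1 and 10 had 21.8 and 23.7 CPM and PBS mouse 11 had 7.22 CPM, against 2.51 to 9.64 CPM in the other 6. Group means of the sum were 16.2 ± 17.7 CPM in plasma cortex (SD, n = 5) and 13.2 ± 18.5 CPM in PBS cortex (SD, n = 4). All 5 erythroid genes had positive log2 changes in the edgeR fit, with a median of 1.63. That median was 0.53 without plasma mouse 1, 2.87 without PBS mouse 11, 3.07 without the 3 mice of the shared number, -1.61 in those 3 mice alone and 0.39 in DESeq2. Hba-a1, an alpha-globin gene with a near-identical copy, had a log2 change of 1.80 ± 1.25 (edgeR adjusted p = 1.00). The other 20 cortex libraries of the first experiment had 4.03 to 58.8 CPM, with a median of 16.5 CPM. The part of residual blood in the immediate early gene levels was not tested.

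**Figure D5:**
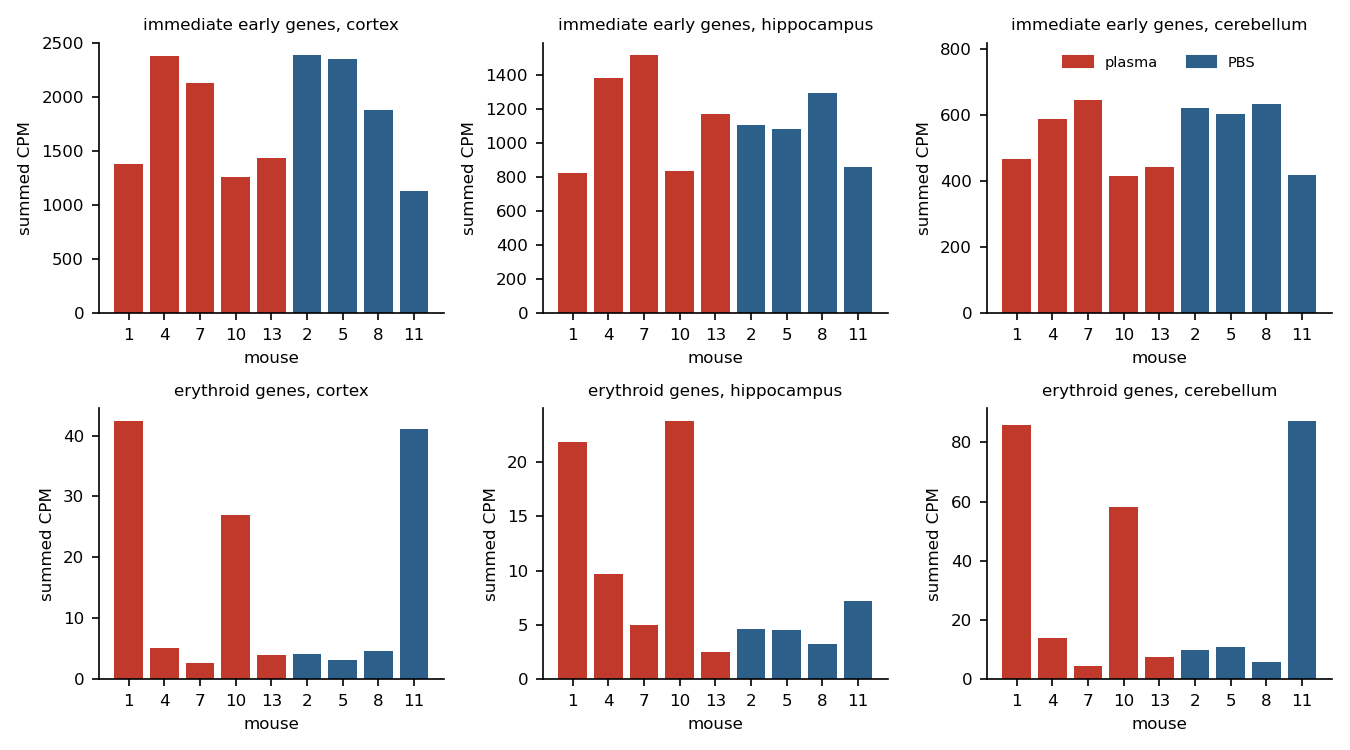
Summed CPM of 20 immediate early genes (top) and 5 erythroid genes (bottom) in the cortex, hippocampus and cerebellum of the same 9 mice, plasma in red and PBS in blue. Plasma mice 1 and 10 and PBS mouse 11 are low in immediate early genes in all 3 regions and high in erythroid genes in the cortex and cerebellum.

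Hormone, stress and clock genes showed little difference between the groups. The glucocorticoid response list, which would follow the stress of handling and injection, had a median log2 change of -0.02 with 8 of 18 genes higher. Of 18 circadian clock genes 14 were lower in plasma cortex, with a median of -0.10, and Clock, a core activator, had a log2 change of -0.13 ± 0.06 (edgeR adjusted p = 1.00). Per1 and Per2, core repressors of the clock, were at -0.09 ± 0.14 and -0.08 ± 0.13. Heat shock and chaperone genes had a median of -0.01 over 20 genes, the iron, hypoxia and haem list of 0.10 over 15, and the translation and stress response list of 0.03 over 14.

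Metabolic and housekeeping lists had medians close to that of all genes. Of 20 cholesterol synthesis genes 15 were higher in plasma cortex, with a median log2 change of 0.08. Fdps, farnesyl diphosphate synthase, had 75.4, 60.8, 65.8, 69.7 and 65.8 CPM in plasma mice 1, 4, 7, 10 and 13, against 61.2, 54.9, 58.8 and 60.6 CPM in PBS mice 2, 5, 8 and 11. Only plasma mouse 4 lay inside the PBS range, and the log2 change was 0.20 ± 0.07 (edgeR adjusted p = 1.00). Cytoplasmic ribosomal protein genes had a median of -0.04 with 37 of 46 lower, nuclear respiratory chain genes a median of -0.03 with 29 of 40 lower, and mitochondrially encoded genes a median of 0.03 with 8 of 13 higher. Proteasome subunit genes had a median of 0.01 over 26 genes, and cell cycle inhibitor and senescence genes a median of 0.02 over 14 genes.

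The next comparison asked whether plasma cortex stood nearer to young cortex in genes that differ with age. Age genes were taken from uninjected mice, 18 months against 2 months, in a fit of the other 20 cortex libraries, where 15 of 18735 genes passed adjustment (0.0801%). Sample titles give the young mice as 2 months old and the series description as 3 months. The uninjected 18-month mice share a title number of their own and the 2-month mice another, so age and that number cannot be told apart. An unadjusted edgeR p under 0.001 gave 59 genes, 43 higher and 16 lower with age. Most of the 59 did not pass adjustment, so some of them may not differ with age. The age score of a library is the mean log2 CPM of these genes, signed by their direction with age, minus its mean in 2-month cortex. It was 0.969, 0.863, 0.868, 0.896 and 0.997 in plasma mice 1, 4, 7, 10 and 13, against 0.976, 0.913, 0.835 and 0.931 in PBS mice 2, 5, 8 and 11. The ranges overlapped almost wholly, with means of 0.919 ± 0.0608 in plasma cortex (SD, n = 5) and 0.914 ± 0.0588 in PBS cortex (SD, n = 4). The difference was 0.0048 (two-sided exact permutation test over 126 regroupings, p = 0.881, smallest possible p = 0.00794). Uninjected 18-month cortex, which chose the genes, averaged 1.15 ± 0.130 (SD, n = 3).

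Of the 59 age genes, 32 had a plasma change opposite to their change with age and 0 passed. At an unadjusted edgeR p under 0.05 there were 6 (10.2%, against 4.06% of all genes), 3 opposite to age and 3 in the direction of age. The 6 are named after their values were seen. Those opposite to age were Ctnnbip1, an inhibitor of beta-catenin, with a plasma change of 0.21 ± 0.10 on the log2 scale, Dcakd with 0.22 ± 0.08 and Btaf1, a regulator of TATA-binding protein, with -0.23 ± 0.10. Those in the direction of age were Lct, with -1.05 ± 0.45, and H2-Q6 and H2-Q7, whose plasma changes are given above beside their near identity. Lct was scarce, at 0.407 to 1.94 CPM in plasma mice and 0 to 2.27 CPM in PBS mice. Neat1, a nuclear long noncoding RNA, had an age change of 1.15 ± 0.24 and a plasma change of -0.20 ± 0.18. Gpr17 had an age change of -1.28 ± 0.22 and a plasma change of 0.30 ± 0.19. Mfsd2a, the transporter that carries docosahexaenoic acid into the brain at the blood-brain barrier, had an age change of -0.85 ± 0.14 and a plasma change of -0.10 ± 0.12. Pcdhb9 and Pcdhb14, clustered protocadherins, had age changes of 0.93 ± 0.17 and 0.94 ± 0.16 and plasma changes of 0.01 ± 0.13 and 0.14 ± 0.12.

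The plasma change in the cortex at 18 months was then tested against the plasma change elsewhere. Between cortex and hippocampus of the same mice, 0 of 19490 genes differed past the threshold (0%). The smallest adjusted p was 0.954 in edgeR's interaction test, with 949 genes at an unadjusted p under 0.05 (4.87%). Between cortex and cerebellum, 0 genes differed (0%) and 615 had an unadjusted p under 0.05 (3.16%). Between mice of 18 and 22 months, 0 of 18769 genes differed (0%), with a smallest adjusted p of 0.603 and 1391 genes at an unadjusted p under 0.05 (7.41%). Between 7 injections at 18 months and 24 injections at 19 months, 0 genes differed (0%), with a smallest adjusted p of 0.782 and 1186 genes at an unadjusted p under 0.05 (6.32%). In the mice with 24 injections the title number follows treatment, so number and treatment cannot be told apart there.

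Values of the followed genes show the size of these differences. C4b had plasma changes of 0.07 ± 0.34 at 18 months, 0.48 ± 0.35 at 22 months and -1.15 ± 0.41 after 24 injections on the log2 scale, and Gfap had 0.10 ± 0.21, 0.23 ± 0.24 and -0.48 ± 0.24. Ttr had -2.76 ± 0.80, -2.52 ± 0.99 and 1.16 ± 1.05 in the same order. Fos had -0.36 ± 0.33, 0.03 ± 0.37 and 0.51 ± 0.36. In the other regions at 18 months, C4b was at 0.28 ± 0.23 in the hippocampus and 0.23 ± 0.26 in the cerebellum, and Fkbp5 at 0.29 ± 0.16 and 0.11 ± 0.24. No adjusted p in these comparisons was below 0.05.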

How the data were processed

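Per the labels' protocols, RNA of homogenized cortex went through RNeasy isolation, Smart-Seq2 cDNA synthesis and Nextera XT tagmentation. The chemistry does not mark strand, so reads of overlapping or antisense genes cannot be told apart. Per the submitters' processing notes, Trim Galore 0.3.7, STAR 2.5.3a, DESeq2 and the GRCm38 build were used; the counting tool is not given in the sources used here. The deposited table holds raw counts per gene symbol, made by the authors with no normalization.

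Groups came from the sample titles, and all 29 cortex libraries of the first experiment were fitted together; age genes came from a fit of the other 20. Counts were analysed in R 4.3.3 with edgeR 4.0.16 (TMM, filterByExpr with a minimum count of 10 and a minimum total of 15, quasi-likelihood test, Benjamini-Hochberg adjustment over all genes, threshold 0.05). DESeq2 1.42.0 and limma 3.58.1 were alternatives. Each SE is the absolute log2 change divided by the square root of the F statistic, and may be too small where the p-value was larger than F implies. CPM have no prior count, and log2 CPM in the age score used a prior of 2. Counts carry amplification noise beyond counting error, since no molecular identifiers mark PCR duplicates. Genes were named by rule or by choice. The rule took the 12 per direction with the smallest unadjusted p. Eligible genes had a mean of at least 5 CPM, groups that do not overlap and no clone-type symbol. It also took 8 followed genes and the gene of smallest p in each of 43 lists, not all of which are given above. Other list members and age genes were picked as examples outside the rule. Interaction contrasts across 87 libraries tested whether regions differed. Members, lists and tests were chosen with earlier results of these data known. The same animal number in the labels pairs the regions of a mouse; deviations from group means correlated by -0.0451 to 0.245 between cortex and hippocampus and by -0.0899 to 0.128 between cortex and cerebellum over the 9 mice. Scripts were tested on simulated data. Promoters came from RefSeq (GRCm38.p6), and coordinates from GENCODE vM21 on GRCm38.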

Additional observations from a re-analysis of the deposited data

Results flagged for a closer look

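Within each group every gene named by rule, list sum and score was searched for a library lying far from the rest by Dixon's criterion. That criterion marks about 1 in 20 groups by chance. It marked 19 of 238 groups of values. Among plasma mice, mouse 1 stood apart in total counts (23768385), in Tap1 (7.36 CPM), in Ldha (404 CPM) and, on the low side, in Sntb2 (28.9 CPM). Plasma mouse 10 stood apart in Cd163, a scavenger receptor of perivascular macrophages (3.41 CPM), in the mitochondrial gene mt-Co3 (13.3 CPM) and in the collagen sum (569.5 CPM). Plasma mouse 4 was low in Mapre1 (104 CPM) and plasma mouse 13 in C1qb (50.2 CPM).

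Among PBS mice, mouse 2 stood apart in Ttr (110 CPM), in the striatal gene Rxrg (42.1 CPM), in the striatal sum (1735 CPM) and in the choroid plexus sum (453 CPM). PBS mouse 11, the shallowest library, was high in Wdr55 (17.1 CPM), Hba-a1 (17.1 CPM), the erythroid sum (41.0 CPM) and the mitochondrial sum (25665 CPM). PBS mouse 5 was high in Slc1a3 (546 CPM) and PBS mouse 8 in the interneuron sum (1509 CPM).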

How the results depend on the processing

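The count of 0 genes held for the main comparison and the 4 differences under each alternative run for them: RLE size factors, no filter on low counts, DESeq2, limma-voom, fits of the compared groups alone, each library left out and the 3 mice of shared title number left out. Unadjusted p under 0.05 marked 545 to 990 genes in the main comparison with 1 library left out, 699 without the 3 mice, 635 with the shared number as a term, 675 in those 3 mice alone (the lone PBS mouse assumed to vary like the other groups) and 766 without libraries under 2500000 counts. The last alternative and the striatal covariate were chosen after seeing the data. Plasma and PBS mice of the cortex are different animals, and the only number they share is the title number of the 3 mice, fitted as a term above; outside those mice it follows treatment. With the mouse as a replicate block across regions, 0 genes differed between cortex and hippocampus and between cortex and cerebellum, with 903 and 657 at an unadjusted p under 0.05.

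The age score difference changed sign with age genes at an unadjusted p under 0.01 (-0.019) and without the 3 mice (-0.0079), and lay between -0.0214 and 0.0256 with 1 library left out. Followed genes near 0 changed sign in places; the cause was not tested. On the log2 scale Serpina3n was at 0.0347 in limma-voom, 0.19 without the 3 mice, 0.0724 with their number as a term and 0.013 without shallow libraries. B2m was at 0.0179 without the 3 mice, Bdnf at -0.0455 without shallow libraries and C4b at -0.11 with the striatal covariate. With 1 library left out, C4b ranged from -0.16 to 0.39, Gfap from -0.0816 to 0.25, Serpina3n from -0.0877 to 0.083, Fkbp5 from -0.0020 to 0.12, B2m from -0.15 to 0.0080, Bdnf from -0.0448 to 0.081 and Aspa from -0.33 to 0.00026. In the 3 mice alone, signs differed for Lct (5.77), Zic2 (0.0827), Th (-0.32), Ly6c1 (-0.0689), Lum (0.65), Hba-a1 (-1.61), Ifih1 (0.0914), Il1a (-0.0231), Homer1 (0.16), Acvr2b (-0.0572) and Hapln1 (0.00091). List medians that moved there by more than the spread between mice were 0.49 for hippocampal neurons, 0.083 for cerebellar neurons, -0.39 for myelin, 0.19 for mural cells and fibroblasts, 0.80 for choroid plexus, 0.90 for neutrophils and monocytes, 0.045 for clock, -0.028 for cholesterol synthesis, -0.033 for perineuronal nets, 0.085 for collagen, -0.20 for ribosomal proteins, -0.19 for the respiratory chain and -0.11 for protocadherins, beside the erythroid and immediate early lists given above. None of the gene changes passed the test. Genes under 1 CPM had the widest intervals, with a median half-width of 0.994 log2 units; the part of depth was not tested.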
